A study of Mus musculus with 10 samples.

Results

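The Notch receptors Notch1, Notch2, Notch3 and Notch4, the ligands Jag1, Jag2 and Dll4, the transcription factor Rbpj and the target genes Hes1 and Heyl were followed in mouse embryonic hearts mosaic for loss of Hccs. Every probe set annotated with exactly 1 gene symbol, that of one of these 10 genes, was taken, which gave 23 of the 34945 probe sets with 1 symbol. Each gene was represented among 18193 genes by its probe set with the highest mean signal. RNA came from whole hearts of female embryos at 13.5 days post coitum, pooled 4 to 5 hearts of 1 genotype to an array. The 5 control pools were from littermates, and the 5 knockout pools from embryos heterozygous for a heart-conditional Hccs knockout. Hccs is the X-linked gene of the enzyme that attaches haem to mitochondrial cytochromes, so X inactivation leaves a knockout heart with both deficient and healthy cells. The Cre driver and the alleles carried by the controls are not given in the sources used here. Expression in the mosaic organ as a whole is compared with expression in the hearts of these control littermates.

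Notch receptors are membrane proteins activated by Delta-like and Jagged ligands on neighbouring cells. Ligand binding leads to cleavage of the receptor, and the freed intracellular domain enters the nucleus, joins the DNA-binding protein RBPJ and induces genes of the Hes and Hey families of transcriptional repressors. In the developing heart the pathway is known for its roles in endocardium, in trabeculation and valve formation, in the coronary and great vessels and in the outflow tract.

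At an adjusted p of 0.05 in limma, a moderated linear model fitted over all genes with Benjamini-Hochberg adjustment, none of the 10 was called. Notch4, a receptor known from endothelium, came nearest. Its mean log2 signal was 7.19 ± 0.12 across the 5 control pools and 6.54 ± 0.37 across the 5 knockout pools (± SD), a log2 change of -0.65 with a limma adjusted p of 0.0655. An unadjusted p under 0.05 was reached by Notch4 and Dll4, with lower means in the knockouts, and by Heyl, with a higher one. Over all genes 2.58% passed the adjusted threshold and 20.6% had an unadjusted p under 0.05, so neither 0 of 10 nor 3 of 10 sets these genes apart from the array as a whole. The median log2 change of the 10 genes was -0.04, against 0.025 over all genes. Of the 10, 7 had a change below 0, as did 39.5% of all genes. At the level of probe sets 0 of the 23 passed, where 1.71% of all probe sets did, and 3 of the 23 had an unadjusted p under 0.05, where 20.2% did.

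The DNA word that RBPJ recognises, TGGGAA, was looked for on both strands of the RefSeq promoters of assembly GRCm38.p6, windows of 250 bases before to 50 after a transcription start. The table held 9 promoters of 8 of the 10 genes, namely all but Hes1 and Heyl. Both promoters of Rbpj itself held the word, and none of the other 7 genes' did. The windows of these Rbpj promoters, 53590096-53590395 and 53590236-53590535, overlap. The only match in the later window, at 53590281-53590286, is also a match in the earlier one. The word occurs in 25.6% of all 32851 promoters in that table. The E-box CACGTG, a word bound by many basic helix-loop-helix proteins, was in 0 of the 9 member promoters and in 7.15% of all. The stretch of the Rbpj promoter with both matches is shown because it is where the gene for the factor carries the factor's own word. It lies at chr5:53590187-53590296 on the plus strand, and capitals mark TGGGAA and, farther on, its reverse complement TTCCCA.
Rbpj promoter stretch: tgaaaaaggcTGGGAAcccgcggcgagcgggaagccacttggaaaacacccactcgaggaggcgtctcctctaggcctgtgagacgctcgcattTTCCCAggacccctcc
The matches start 149 and 65 bases upstream of the first of the gene's annotated starts. They are matches of letters, and binding was not measured here.

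Values per array are log2 signals given in the order of replicates 1 to 5, and changes are knockout minus control. The table has no detection calls, so a probe set whose signal lies below the array medians, which ran from 3.65 to 3.76, may measure little transcript. Of the 23 probe sets, 16 lay above every array median in all 10 arrays, 5 lay below every one and 2 straddled them. A signal depends on the probes as well as on the transcript, so genes are not ranked by level.

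**Figure D1:**
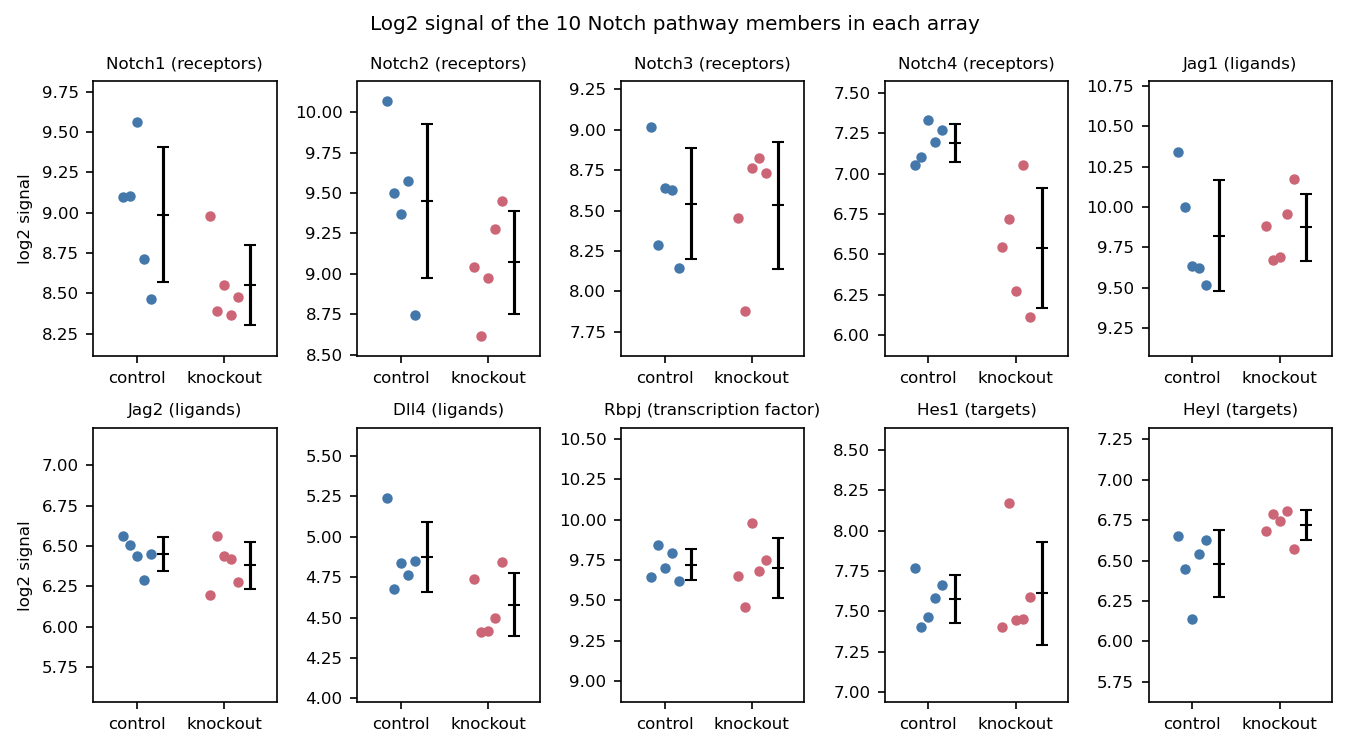
Log2 signal (vertical axis) of each of the 10 genes in the 5 control pools (blue) and 5 knockout pools (red), with the mean and SD of each group as black bars; every panel spans the same number of log2 units. The groups overlap in all 10 panels, by 1 knockout pool at 7.05 in the panel of Notch4, where 5.79% of all genes had separated groups.

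Notch4 had control signals of 7.05, 7.10, 7.33, 7.20 and 7.27 and knockout signals of 6.54, 6.72, 6.27, 7.05 and 6.11. The controls were close together, 4 knockout pools lay below all of them, and knockout replicate 4 lay level with the lowest control. The knockout level was 0.637-fold that of the controls (95% interval 0.498 to 0.817). The standard error of the log2 change was 0.16, and an exact permutation test, two-sided, gave p = 0.0159 (n = 5 each), where 0.00794 is the smallest that 5 against 5 arrays allow. Not called in the main fit, Notch4 passed in 3 of the 20 alternatives and did not pass in the other 17. Its limma adjusted p was 0.0409 without knockout replicate 4, with a log2 change of -0.78. It was 0.0473 and 0.0258 when genes below the lower quartile or the median of mean level were removed before the fit, and it ran from 0.0258 to 0.244 over all 20 alternatives. The other pair of Notch4 probe sets lay below every array median, between 1.84 and 2.72, with log2 changes of 0.024 and 0.011. They followed no difference between the genotypes, and averaging all 3 probe sets gave a log2 change of -0.20.

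Notch1, the main receptor of the endocardium, had control signals of 9.09, 9.10, 9.56, 8.71 and 8.47 and knockout signals of 8.98, 8.39, 8.55, 8.37 and 8.48. Most knockout pools lay low and close together, but knockout replicate 1 lay among the controls and control replicate 5 among the knockouts. The means were 8.99 ± 0.42 and 8.55 ± 0.25 (SD, n = 5 each), a log2 change of -0.43 with a limma adjusted p of 0.253. The 95% interval of the knockout to control ratio, 0.544 to 1.01, reaches from a large decrease to no difference. Control replicate 3 had the highest Notch1 signal and also the highest mean of 4 measured neural crest and neuronal markers, 5.57 against 3.47 to 4.08 in the other controls. Tubb3 and Elavl4, at 8.02 and 7.30 in that array, raised this mean, and Sox10 was also highest among controls there (5.28). Foxd3 had its lowest control signal there (1.67), but all its signals lay below every array median. Some endothelial markers, such as Nfatc1 (9.21), were also highest among controls in that array, and others, such as Plvap, were not. Without control replicate 3 the log2 change of Notch1 was -0.29, and the part of neural or endothelial cells in its value was not tested. The dimmer Notch1 probe set had signals of 5.39, 5.70, 5.61, 5.32 and 5.20 in controls and 5.68, 5.22, 5.43, 4.60 and 4.93 in knockouts. It pointed the same way, with a log2 change of -0.27 (SE 0.19) and overlapping groups.

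Notch2, a widely expressed receptor, had control signals of 10.07, 9.50, 9.37, 9.58 and 8.75 and knockout signals of 9.04, 8.61, 8.98, 9.28 and 9.45. Both groups were spread over more than 0.8 log2 units, and the single lowest and highest controls enclosed 4 of the 5 knockouts. The log2 change was -0.38 with an SE of 0.23 (limma adjusted p = 0.38), with an exact permutation p of 0.183 (n = 5 each). It was -0.23 without control replicate 1 and -0.19 with the probe sets averaged. A second Notch2 probe set lay below every array median, from 2.73 to 3.04, and had a log2 change of 0.0049.

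Notch3, the receptor typical of smooth muscle cells and pericytes, had control signals of 9.02, 8.29, 8.64, 8.62 and 8.15 and knockout signals of 8.46, 7.88, 8.77, 8.82 and 8.73. The knockouts were as widely spread as the controls, and the means were 8.54 ± 0.34 and 8.53 ± 0.39 (SD, n = 5 each). With a log2 change of -0.012 and a 95% interval of the ratio from 0.714 to 1.38, a moderate change either way could have been missed. The sign of so small a change had no stability: it was positive under median centring and without any one of control replicates 1, 3 and 4 or knockout replicates 1 and 2, up to 0.15. By the suffix of its name this probe set can also match related transcripts. The dimmer Notch3 probe set lay below the array medians, from 3.23 to 3.63.

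Among the ligands, Dll4, which is made by arterial endothelium and signals through Notch1 and Notch4, had control signals of 5.24, 4.68, 4.84, 4.77 and 4.85 and knockout signals of 4.74, 4.41, 4.42, 4.50 and 4.84. In 3 knockout pools the signal lay below every control, and in the others it lay among them. The means were 4.87 ± 0.22 and 4.58 ± 0.20 (SD, n = 5 each), a log2 change of -0.29 with a limma adjusted p of 0.21 and an exact permutation p of 0.0635. The ratio of knockout to control was 0.816 (95% interval 0.677 to 0.984). The other Dll4 probe set had a log2 change of -0.21 (SE 0.25), and its control signals alone ran from 3.96 to 5.36.

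Jag1, a ligand of the outflow tract, epicardium and vessel walls, had control signals of 10.34, 9.998, 9.63, 9.62 and 9.51 and knockout signals of 9.88, 9.67, 9.69, 9.96 and 10.17. All knockouts lay within the range of the controls. The log2 change was 0.053 (SE 0.16, adjusted p = 0.876 in limma), and it was -0.024 without control replicate 5 and -0.022 without knockout replicate 5. The 2 dimmer Jag1 probe sets had log2 changes of 0.14 and 0.063. Control replicate 1 was highest in all 3 Jag1 probe sets, with 10.34, 6.37 and 5.33.

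Jag2 had control signals of 6.56, 6.51, 6.44, 6.29 and 6.45 and knockout signals of 6.20, 6.56, 6.44, 6.42 and 6.28. These were among the most closely spaced values of the 10 genes, and the groups overlapped almost throughout. The log2 change was -0.071 (SE 0.075, adjusted p = 0.615 in limma), with a 95% interval of the ratio from 0.847 to 1.07. Its dimmer probe set, around the array medians, ran from 3.31 to 3.91 in controls and from 3.04 to 3.34 in knockouts. That gave a log2 change of -0.25 and an adjusted p of 0.248 in the limma fit over probe sets.

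Rbpj, the DNA-binding partner of all the receptors, had 3 probe sets, all above the array medians. The brightest had control signals of 9.64, 9.85, 9.70, 9.79 and 9.62 and knockout signals of 9.65, 9.46, 9.98, 9.68 and 9.75. The lowest and the highest of the 10 values both came from knockout pools. Its log2 change was -0.018 (SE 0.088, adjusted p = 0.923 in limma), and those of the other probe sets were -0.070 and 0.025. The 95% interval of the ratio, 0.862 to 1.13, leaves room only for small changes of this transcript in the whole heart, in either direction.

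Hes1, a repressor induced by Notch in many tissues, had control signals of 7.77, 7.40, 7.46, 7.58 and 7.66 and knockout signals of 7.40, 8.17, 7.44, 7.45 and 7.59. Knockout replicate 2 stood above the 9 other arrays, and the remaining 4 knockouts lay within the range of the controls. The log2 change was 0.034 (SE 0.15, adjusted p = 0.911 in limma). Without knockout replicate 2 it was -0.11, with a limma adjusted p of 0.534.

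Heyl, a Hey-family repressor known from vascular smooth muscle and a target of Notch3, had control signals of 6.65, 6.44, 6.14, 6.54 and 6.63 and knockout signals of 6.69, 6.79, 6.74, 6.81 and 6.57. In 4 knockout pools the signal was above every control, and knockout replicate 5 lay among the controls. The means were 6.48 ± 0.21 and 6.72 ± 0.09 (SD, n = 5 each), a ratio of 1.18 (95% interval 1.02 to 1.37) with an exact permutation p of 0.0317 and a limma adjusted p of 0.203. Part of the difference came from control replicate 3, the lowest array: without it the log2 change was 0.15 in place of 0.24. The second Heyl probe set had a log2 change of 0.12 (SE 0.21), with the lowest signal of all in knockout replicate 5 at 5.12, and the third lay below every array median.

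**Figure D2:**
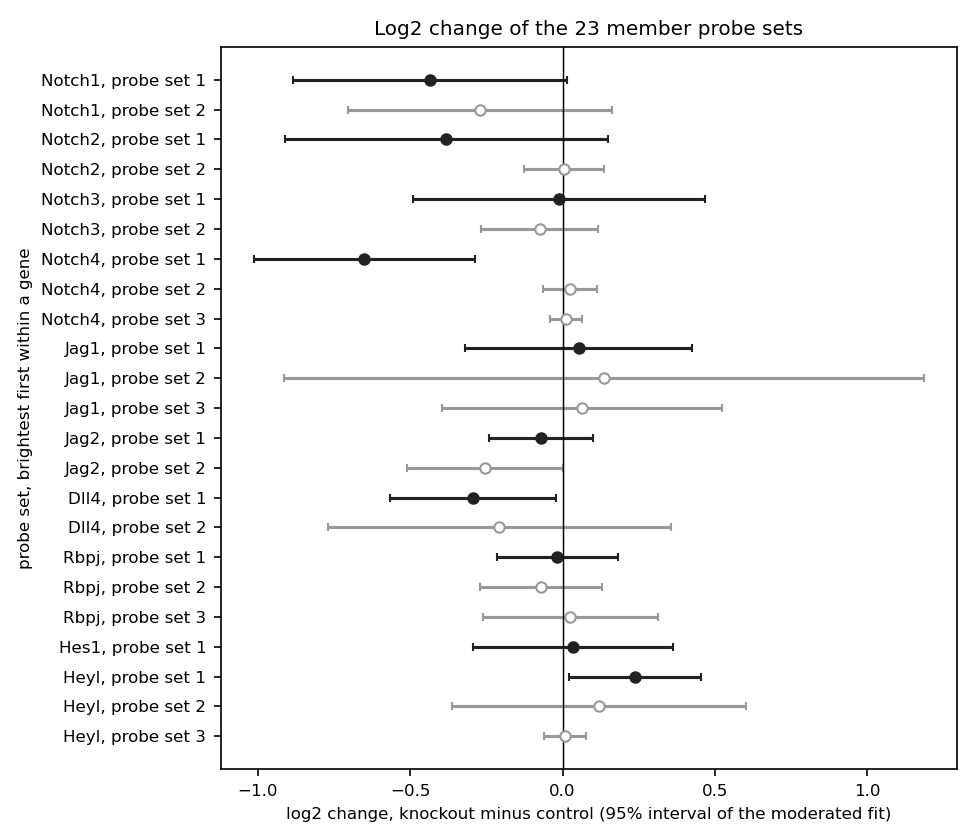
Log2 change, knockout minus control (horizontal axis), of the 23 probe sets with the 95% interval of the moderated fit; filled black points are the brightest probe set of each gene and open grey points the others. The interval of Notch4's brightest probe set, -1.01 to -0.29, lies farthest from 0, while its dim probe sets sit at 0.024 and 0.011.

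The genes shared some array-to-array variation within a genotype. Control replicate 1 was the highest control for 7 of the 10 genes, namely Notch2, Notch3, Jag1, Jag2, Dll4, Hes1 and Heyl, while it was the lowest control for Notch4. Control replicate 5 was the lowest control for 5 genes, and knockout replicate 2 the lowest knockout for 5. Averaged over the 10 genes the log2 signal ran from 7.74 to 8.14 in controls and from 7.67 to 7.83 in knockouts. The ranges overlap, and the upper end of the control range is again replicate 1.

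The pattern of Notch4 over the 10 arrays was matched most closely, of 10915 genes with a mean level above the 40th percentile, by Ccser2 (Pearson r 0.98, Spearman rho 0.95), S100a13 (0.95 and 0.79) and Eef1a2 (0.92 and 0.93). These are the highest of many coefficients over few arrays that also share the difference between genotypes, so they are given as a description. Their own log2 changes were -0.27, -0.21 and -0.42, and none passed in limma (adjusted p = 0.103, 0.149 and 0.0648).

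Of 78 other genes of the pathway, grouped by role, 72 were measured, and 1 rose, 1 fell and 70 did not pass in limma. That is close to the 1.63% of all genes that rose and the 0.945% that fell. Their median log2 change was -0.033, and 12 of the 72 had an unadjusted p under 0.05, against 20.6% of all genes. Groups did not overlap for 2 of the 72, where 5.79% of all genes had separated groups.

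Tle4, a Groucho-type co-repressor that Hes proteins recruit, fell from a mean log2 signal of 9.04 ± 0.09 to 8.61 ± 0.10 (SD, n = 5 each), with a limma adjusted p of 0.0156. Control signals were 8.98, 8.99, 9.18, 9.07 and 8.96 and knockout signals 8.46, 8.65, 8.70, 8.67 and 8.56, so the groups were fully apart. The call rests on this brightest probe set: the others, at means of 4.33 and 2.63 in controls, had log2 changes of 0.084 and -0.13, and with the 3 averaged the adjusted p was 0.268. With replicate 3 of each genotype removed it was 0.0501. Cdkn1a, a cell cycle inhibitor that Notch can induce and that is better known as a target of p53, rose 1.82-fold (limma adjusted p = 0.0396). Its control signals were 8.25, 7.94, 8.62, 8.33 and 8.21 and its knockout signals 9.21, 9.39, 8.54, 9.10 and 9.43. Knockout replicate 3 lay below the highest control, and its other probe set, dim in controls, was lowest among knockouts in that same array. The Cdkn1a call was lost without any one of the 5 controls or of knockout replicates 2, 4 and 5 (adjusted p from 0.0511 to 0.0881), at 0.0558 with quantile normalization and at 0.128 with the replicate number as a block. On the most variable probe set the log2 change was 1.48, with an adjusted p of 0.0698 in limma.

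Among the 17 other genes listed as targets, Cdkn1a rose and 16 did not pass. Hey2, the Hey gene of compact ventricular myocardium, had a log2 change of 0.030 (SE 0.15) and Hey1 of -0.18 (SE 0.11). Nrarp, a feedback inhibitor of Notch, had -0.19 (SE 0.10). Hes6, a Hes-family gene whose induction by Notch was not tested here, had -0.21 (SE 0.064) with groups that did not overlap. Bmp10, a growth factor of trabecular myocardium that depends on endocardial Notch, differed by 0.64 on the log2 scale (SE 0.15, adjusted p = 0.0583 in limma). The brightest target that did not pass, the cyclin gene Ccnd1, had -0.045 (SE 0.079). Hey1, Hey2, Nrarp, Hes6 and Bmp10 were named after their values were seen. Together with Hes1 and Heyl they point in both directions, with or without Hes6, and none of them passed.

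The machinery around the receptors was measured with similar outcome. None of 8 cleavage genes, 6 glycosylation genes, 4 ligands or 16 ubiquitin and endocytosis genes passed in limma, with 2, 1, 0 and 2 of them at an unadjusted p under 0.05, against 20.6% of all genes. Adam10, the protease that makes the first ligand-dependent cut, had a log2 change of 0.082 (SE 0.048), and Pofut1, which adds the fucose that receptors need, of -0.096 (SE 0.080), which was -0.20 with its probe sets averaged and -0.56 on the most variable one. Dlk1, a non-canonical ligand, had 0.21 (SE 0.13), Dll1 had -0.24 (SE 0.12) and the ubiquitin ligase gene Nedd4 had -0.12 (SE 0.052). Of the ubiquitin and endocytosis genes 13 of 16 had a change below 0, against 39.5% of all genes, with a median of -0.16 against 0.025 for all genes. Among 21 nuclear cofactors Tle4 fell and 20 did not pass, of which Hdac2 was the brightest (0.050, SE 0.045) and the acetyltransferase gene Kat2b had -0.21 (SE 0.057), or -0.028 with its probe sets averaged. Dll1 and Kat2b were also chosen after their values were seen.

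**Figure D3:**
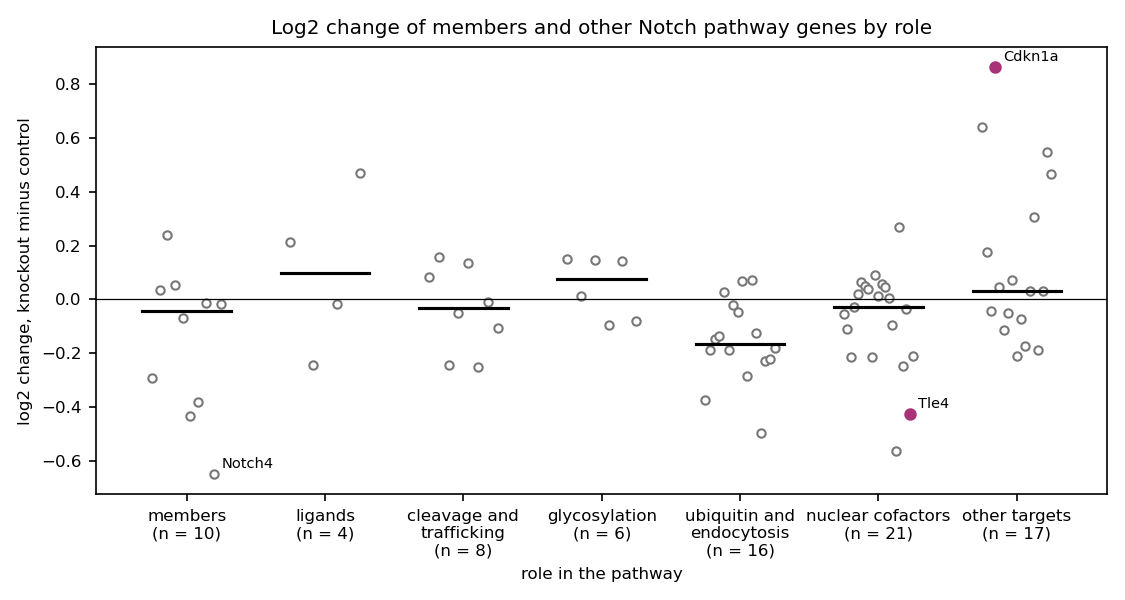
Log2 change, knockout minus control (vertical axis), of the 10 genes and of 72 other pathway genes by role; each point is a gene, filled where it passed an adjusted p of 0.05 in limma, and horizontal bars are medians. The filled points are Cdkn1a and Tle4, and the medians lie between -0.16 and 0.097.

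Notch1, Notch4 and Dll4 are genes of endothelium and endocardium, and in RNA from whole hearts fewer cells of a type and less RNA per cell cannot be told apart. None of 14 endothelial and endocardial markers passed in limma. An unadjusted p under 0.05 was reached by 5 of them, 4 lower and 1 higher in knockouts, against 20.6% of all genes, and their median log2 change was -0.12. Kdr, the VEGF receptor, differed by -0.46 on the log2 scale (SE 0.13, adjusted p = 0.0881 in limma), Cdh5, the junction protein VE-cadherin, of -0.29 (SE 0.091) and Tie1, an endothelial receptor kinase, of -0.31 (SE 0.13). The brightest of the list, Emcn and Ramp2, had 0.13 (SE 0.061) and -0.11 (SE 0.080), and Pecam1 had 0.030 (SE 0.12). The higher one of the 5 was Plvap, a protein of endothelial diaphragms, at 0.16 (SE 0.062). Kdr, Cdh5, Tie1, Pecam1 and Plvap were chosen after their values were seen. The mean of the 14 markers ran from 9.56 to 9.82 in controls and from 9.58 to 9.71 in knockouts. The markers thus did not all move with Notch4, and the part of endothelial cell content in its value was not tested.

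**Figure D4:**
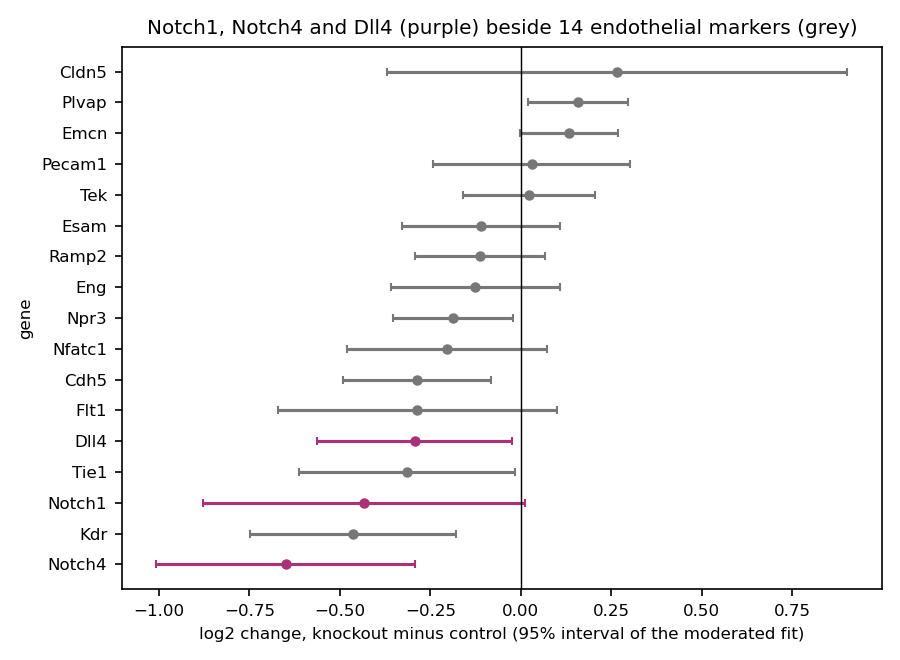
Log2 change, knockout minus control (horizontal axis), with the 95% interval of the moderated fit for Notch1, Notch4 and Dll4 (purple) and 14 endothelial and endocardial markers (grey), sorted by change. The markers run from -0.46 (Kdr) to 0.27 (Cldn5), and the log2 change of Notch4, -0.65, lies below them. The intervals of Notch4 (-1.01 to -0.29) and Kdr (-0.75 to -0.18) overlap.

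Notch3 and Heyl belong to mural cells, and none of 9 markers of smooth muscle and pericytes passed in limma. An unadjusted p under 0.05 was found for 4 of the 9, 3 lower and 1 higher, against 20.6% of all genes. Acta2 and Tagln, the brightest, had log2 changes of -0.13 (SE 0.047) and -0.20 (SE 0.14). Whether the markers of this list report mural cells alone in whole embryonic hearts was not tested. Pdgfrb, a pericyte receptor chosen after its value was seen, had 0.45 (SE 0.11, limma adjusted p = 0.0655) with groups that did not overlap. Cspg4, another pericyte marker, went the other way at -0.61 (SE 0.22), as did Cnn1, a smooth muscle protein, at -0.27 (SE 0.097), both also chosen after their values were seen. The mean of the 9 markers ran from 9.94 to 10.28 in controls and from 9.96 to 10.13 in knockouts, beside a log2 change of 0.24 for Heyl, and its part in that value was not tested.

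As a check of the labels, Hccs itself was lower in every knockout pool, from 10.39 to 10.90 against 11.11 to 11.31 in controls (log2 change -0.55, limma adjusted p = 0.0225). Of 11 cardiomyocyte markers, bright in both groups, 3 fell and 8 did not pass, where 0.945% of all genes fell. All 11 had a log2 change below 0, against 39.5% of all genes, 10 had an unadjusted p under 0.05, against 20.6%, and 5 had separated groups, against 5.79%. Their mean was 15.19 to 15.32 in controls and 14.88 to 15.10 in knockouts, and the part of this difference in the Notch values was not tested. Of 8 epicardial markers 1, Tcf21, rose, where 1.63% of all genes rose, and 2 of the 8 had a change below 0. Of 8 mesenchymal, 8 macrophage, 4 neural crest and 6 erythroid markers none passed in limma. An unadjusted p under 0.05 was reached by 0, 1, 0 and 1 of them, against 20.6% of all genes. The 5′ probe set for 18S ribosomal RNA averaged 10.05 in controls and 8.17 in knockouts, and the 3′ one 9.16 and 8.38. Control replicate 3, at 8.06 on the 5′ probe set, lay within the knockout range. On the 3′ probe set it was the lowest array, at 7.57, and control replicate 1, at 8.82, lay within the knockout range of 8.01 to 8.93. The part of the 18S signal in the values above was not tested.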

How the data were processed

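Gene expression was measured on Affymetrix arrays, 5 per genotype. The authors deposited log2 probe set signals, and RMA and Partek are named, without versions, in the submitters' processing notes. The arrays had been brought to nearly the same distribution, so a change in total RNA cannot be seen, and the compression of low signals by the background step is not known. The number of arrays limits the precision. Symbols came from the platform annotation. Of 45101 probe sets, 64 controls, 932 with several symbols and 9160 with none were left out.

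The model was limma's (version 3.58.1, R 4.3.3; lmFit then eBayes, genotype as the only term, two-sided), over genes and again over probe sets, with no filter on level. Intervals are at 95% from the moderated fit. Exact permutation tests used all splits of the 10 arrays. The fit was tested on simulated data. Promoters are RefSeq's. Plots used matplotlib 3.10.9 in Python 3.11.15.

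Members and lists were chosen with earlier results of these data known. Named are all members; of each pathway role up to 4 genes that passed and the brightest that did not; of the endothelial and mural lists up to 3 that passed and the 2 brightest; and the 3 genes most like the member with the smallest p. Alternatives were the replicate block, other normalizations, level filters, array weights, other choices of probe set, a trended robust eBayes and left-out arrays. The remaining genes of the pathway list are not reported here.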

Additional observations from a re-analysis of the deposited data

Results flagged for a closer look

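In 2 of the 46 sets of 5 arrays formed by the 23 probe sets and the 2 genotypes, 1 array stood apart by Dixon's criterion. Chance alone gives about 1 in 20 such sets. For a dim Jag1 probe set control replicate 1 had a log2 signal of 5.33, while the other controls lay between 4.37 and 4.43. For Hes1 knockout replicate 2 had 8.17, while the other knockouts lay between 7.40 and 7.59.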

How the results depend on the processing

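The count of genes past the threshold, 469, was 36 with a replicate block, 759 with a filter at the median level, 945 with array weights, 30 without both arrays numbered 3 and 105 to 1042 with 1 array left out, the highest without knockout replicate 1. For probe sets (598) these were 30, 1071, 1680, 43 and 111 to 1771. Of the 10 genes 1, Notch4, passed with each level filter and 0 to 1 with 1 array left out; of the 23 probe sets 1 passed with the median filter and 0 to 1 with 1 array left out. The pathway count of 2 was 1 with the block, quantile normalization, mean or most variable probe set and without both arrays numbered 3, 3 with each level filter, array weights and the trended robust eBayes, and 1 to 2 with 1 array left out. Hccs lost its call with the block (-0.55, adjusted p = 0.0735), without both arrays numbered 3 (-0.59) and in 4 of the fits with 1 array left out (-0.60 to -0.48 over all 10). Over all genes, same-numbered arrays did not deviate together (correlations of -0.068, 0.034, -0.091, 0.077 and 0.0098). The labels do not say whether the numbers pair the pools, and correlations over all genes cannot settle it. Signs turned for small changes: Notch3 (0.0037 with median centring, -0.11 to 0.15 with 1 array left out), Rbpj (0.025 with the most variable probe set, 0.0033 with array weights, -0.086 to 0.043 with 1 array left out), Hes1 (-0.049 with array weights, -0.11 to 0.086 with 1 left out) and, with 1 left out, Jag1 (-0.024 to 0.18), Hey2 (-0.043 to 0.15) and Ccnd1 (-0.097 to 0.0037). With the most variable or the mean probe set they turned for Hdac2 (-0.81 and -0.10) and Acta2 (0.47 and 0.095), and with the former for Tle4 (0.084). Kdr, Pdgfrb, Bmp10 and Nedd4, not called, passed in 3, 4, 5 and 1 alternatives. The causes were not tested. Changes of Notch1, Notch2, Notch4, Jag2, Dll4 and Heyl kept their sign in every alternative that held the gene. The median filter removed Jag2 and Dll4. The replicate block, the level filters and the trended robust eBayes cannot alter the log2 change, so only the other alternatives could have turned a sign. Signal over background was not given, which limits the 5 probe sets below the array medians.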
